A study of Arabidopsis thaliana with 12 samples.

Results

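CHLM and AT1G74470 encode enzymes that make the ring and the tail of chlorophyll, and each was measured by 1 probe on this array of 3439 probes. They were taken as the probes that the platform's table assigns to CHLM alone or to AT1G74470 alone. They are 2 of the 691 genes that have a probe of their own in that table. No other probe lists either gene, so the level of each rests on a single probe. Transcript levels were measured in total RNA from Arabidopsis thaliana of ecotype Columbia 0 grown on soil, in 6 wild-type (WT) samples and 6 samples of the pete2 mutant, which is without 1 of the plant's plastocyanin isoforms. The sample titles carry the numbers 1 to 6 in each group and name soil for the pete2 samples only. The sources used here do not give the age of the plants, the organ sampled, the light regime, the kind of pete2 allele or whether each sample came from plants of its own. The p-values therefore reflect the scatter among these samples, part or all of which may be technical.

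Chlorophyll is a magnesium-containing tetrapyrrole ring joined to a long isoprenoid tail. The enzyme encoded by CHLM (AT4G25080), magnesium protoporphyrin IX methyltransferase, adds a methyl group to the ring directly after magnesium has been inserted. Geranylgeranyl reductase, encoded by AT1G74470, saturates the geranylgeranyl group to the phytyl tail of chlorophyll and also supplies phytyl groups for tocopherol. Plastocyanin, the protein affected in pete2, is the copper protein that carries electrons through the thylakoid lumen to the chlorophyll-containing photosystem I. The RefSeq annotation of assembly TAIR10.1 lists geranylgeranyl reductase among the synonyms of AT1G74470 and also of AT4G38460, a subunit of geranylgeranyl diphosphate synthase. The values below are those of AT1G74470.

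The array values are intensities in arbitrary units. They were compared both as deposited and after quantile normalization, which gives all samples the same distribution of values. Deposited zeros were then set to a common floor, so the samples still differed in their share of values at that floor. The share of probes listed at exactly 0 lay between 15.7% and 17.8% in WT samples and between 17.1% and 30.7% in pete2 samples, and was highest in pete2 samples 5 and 6. The median deposited intensity was lower in pete2 samples 3 to 6 (0.0543 to 0.0921) than in the other 8 samples (0.129 to 0.193). CHLM and AT1G74470 were above 0 in all 12 samples. The plastocyanin genes are not named in the platform's table, so the genotype labels were not checked against the data. None of the 13 marker genes of green leaf, root, flower, vascular tissue, guard cells, dividing cells and senescent leaf was measured, so the tissue make-up of the samples was not examined, and fewer cells of a type and less RNA per cell cannot be told apart.

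CHLM had a lower deposited intensity in every pete2 sample than in any WT sample. In WT it was 0.265 and 0.382 in samples 1 and 2, 0.312 and 0.298 in samples 3 and 4, and 0.612 and 0.483 in samples 5 and 6. In pete2 it was 0.240 and 0.238 in samples 1 and 2, 0.0440 and 0.0392 in samples 3 and 4, and 0.151 and 0.179 in samples 5 and 6. The groups therefore did not overlap as deposited, but the gap was narrow, between 0.240 in pete2 sample 1 and 0.265 in WT sample 1. Groups that do not overlap, with pete2 lower, were found for 9.06% of the 3321 probes tested.

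**Figure D1:**
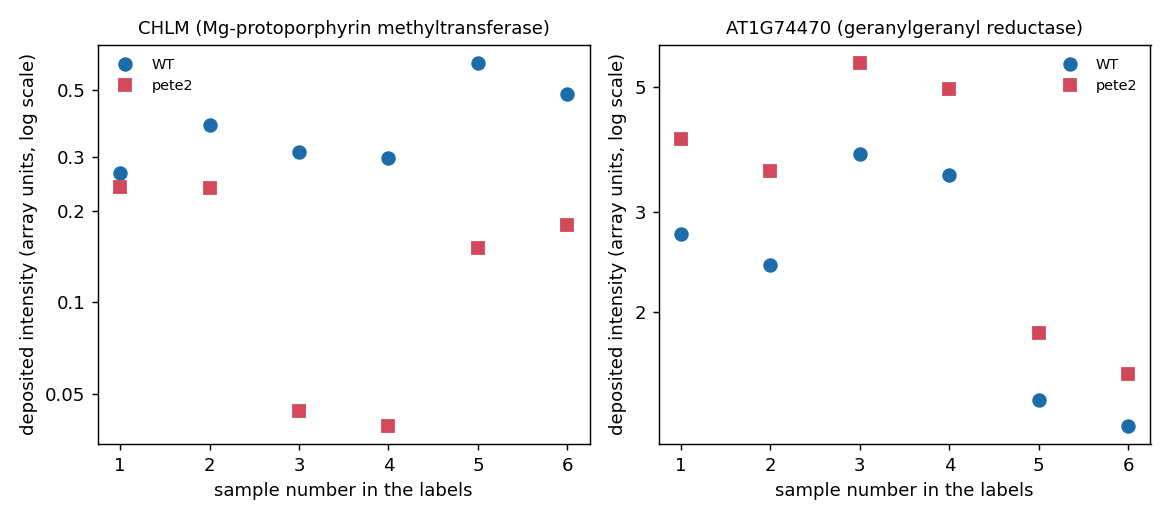
Deposited intensity (array units, log axis) of CHLM on the left and AT1G74470 on the right against the sample number in the labels, with WT as circles and pete2 as squares and 1 point per sample. All pete2 points of CHLM lie below all WT points, lowest in samples 3 and 4 (0.0440 and 0.0392), while for AT1G74470 both groups are highest in samples 3 and 4 and lowest in samples 5 and 6.

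After quantile normalization the groups overlapped for CHLM. Over the WT samples its normalized intensity averaged 0.331 ± 0.0852 (SD, n = 6), with a lowest value of 0.251, a median of 0.310 and a highest of 0.470. Over the pete2 samples it averaged 0.189 ± 0.110 (SD, n = 6), with a lowest value of 0.0710, a median of 0.180 and a highest of 0.332. The pete2 samples 1 to 4 lay below the lowest WT sample, whereas samples 5 and 6 (0.299 and 0.332) lay within the WT range. The log2 difference, pete2 minus WT, was -1.02 ± 0.413 (SE, limma), with a 95% interval from -1.91 to -0.12. It did not pass the threshold of 0.05 after Benjamini-Hochberg adjustment over all probes (adjusted p = 0.143), at which 11.2% of all probes were called, 4.91% as higher and 6.29% as lower in pete2.

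With the unscaled deposited intensities the log2 difference of CHLM was -1.67 ± 0.504 (SE) and passed the threshold (limma, adjusted p = 0.0451). On that scale the typical probe was lower in pete2 too, with a median log2 difference of -0.63, and 11.6% of the probes were called lower in pete2. The call thus depended on the scaling. Pete2 samples 3 and 4 had the lowest CHLM on both scales. Their share of probes at 0 was 21.6% and 21.5%, and that of pete2 samples 5 and 6 was 30.7% and 28.6%. Whether this share has a part in the CHLM values was not tested. Without pete2 samples 3 and 4 the normalized log2 difference was -0.43 (limma, adjusted p = 0.40). Without pete2 samples 5 and 6 it was -1.46 (limma, adjusted p = 0.0257), with 363 probes called against 372 over all 12 samples. These fits remove the lowest and the highest normalized CHLM values, respectively, from pete2 only.

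AT1G74470 had overlapping groups on both scales. Its deposited intensity in WT was 2.75 and 2.42 in samples 1 and 2, 3.81 and 3.50 in samples 3 and 4, and 1.39 and 1.25 in samples 5 and 6. In pete2 it was 4.04 and 3.55 in samples 1 and 2, 5.51 and 4.95 in samples 3 and 4, and 1.83 and 1.55 in samples 5 and 6. The same order of sample numbers held in both groups, with samples 3 and 4 highest and samples 5 and 6 lowest. The mean of samples 3 and 4 was 2.76 times that of samples 5 and 6 in WT and 3.09 times in pete2, whereas the mean of pete2 was 1.42 times that of WT.

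The normalized intensity of AT1G74470 averaged 2.23 ± 0.880 (SD, n = 6) over the WT samples and 3.795 ± 1.58 (SD, n = 6) over the pete2 samples. The pete2 samples 1 to 4 lay above every WT sample, while samples 5 and 6 (2.08 and 1.71) lay among them. The log2 difference was 0.76 ± 0.371 (SE), with a 95% interval from -0.05 to 1.56, and it did not pass the test (limma, adjusted p = 0.221). With the 12 samples taken separately, the interval runs from 0.968 to 2.95 times the WT level. Without samples 5 and 6 of both groups the spread within groups was smaller, and a log2 difference of 0.77 ± 0.140 (SE) passed the threshold (limma, adjusted p = 0.013). It was 1.17 without pete2 samples 5 and 6 alone (adjusted p = 0.046), which removes the lowest values from pete2 only. In these fits 339 and 363 of all probes were called, against 372 with all 12 samples. Without WT samples 5 and 6 alone the log2 difference was 0.33 (limma, adjusted p = 0.605). Without pete2 samples 3 and 4 alone it was 0.44 (limma, adjusted p = 0.515).

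**Figure D2:**
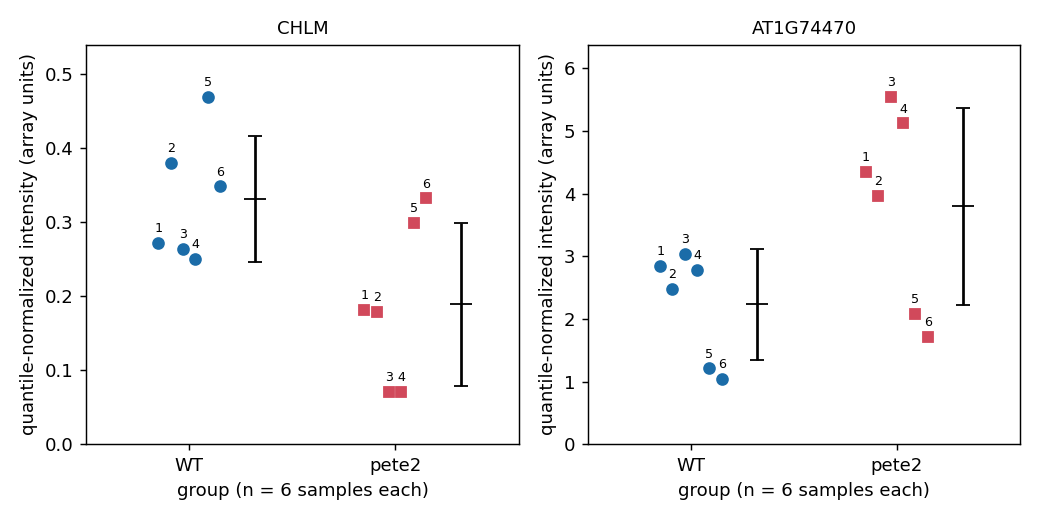
Quantile-normalized intensity (array units) of CHLM and AT1G74470 in WT (circles) and pete2 (squares), with the sample number at each point and the mean and SD of 6 samples as the bar at the right of each group. For CHLM the pete2 mean is 0.189 against 0.331 in WT, for AT1G74470 it is 3.795 against 2.23, and in both panels pete2 samples 5 and 6 lie within or next to the WT points.

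Samples with consecutive numbers lay close together for AT1G74470 and, in pete2, for CHLM. In WT the deposited CHLM of samples 1 and 2 (0.265 and 0.382) lay on either side of that of samples 3 and 4 (0.312 and 0.298). In AT1G74470 the deposited values of samples 1 and 2, 3 and 4, or 5 and 6 of a group differed by at most 1.18-fold, against a 3.03-fold range over all WT samples and a 3.55-fold range over all pete2 samples. In CHLM they differed by at most 1.44-fold in WT and 1.19-fold in pete2, against ranges of 2.31-fold and 6.12-fold. The labels do not say whether such samples repeat the same material. With consecutive samples averaged, which leaves 3 values per group, the adjusted p was 0.466 for CHLM and 0.532 for AT1G74470 (limma), and 0.331% of all probes were called. With them as a random block (duplicateCorrelation, correlation 0.525) it was 0.254 and 0.344, and 5.06% of the probes were called.

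**Figure D3:**
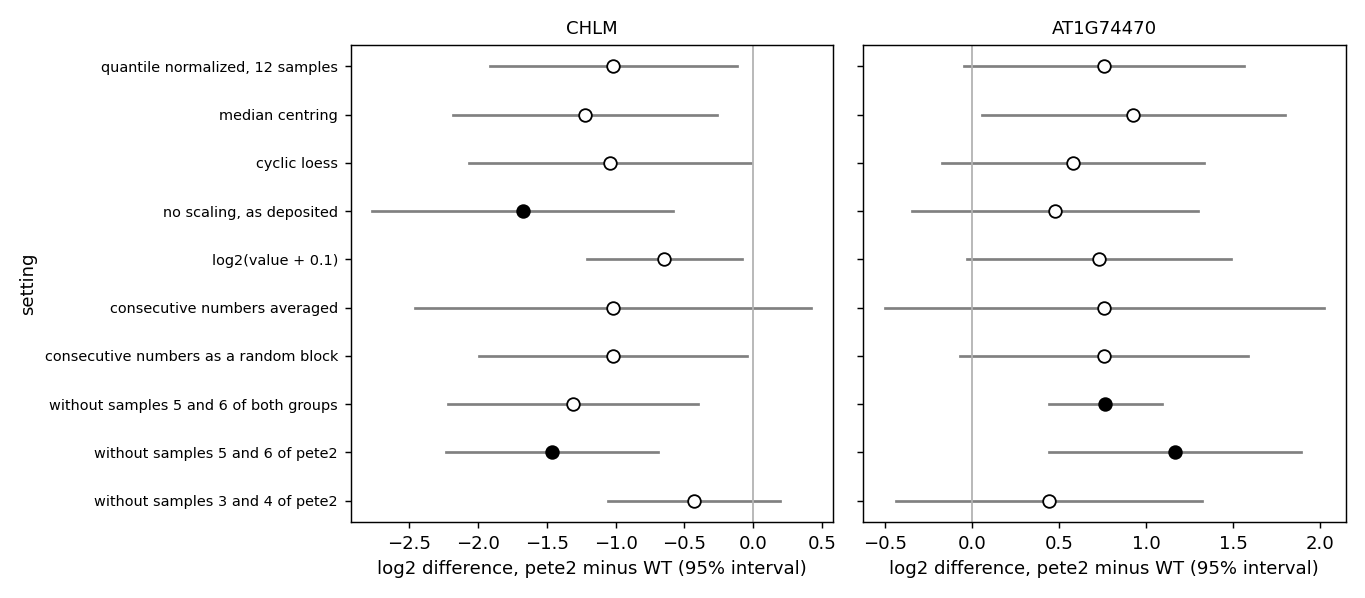
Log2 difference, pete2 minus WT, of CHLM (left) and AT1G74470 (right) with its 95% interval from limma under 10 settings of scaling, treatment of consecutive numbers and samples, with filled points where the adjusted p was under 0.05 and open points elsewhere. CHLM is negative in all of them and filled as deposited (-1.67) and without pete2 samples 5 and 6 (-1.46), and AT1G74470 is positive in all of them and filled where pete2 samples 5 and 6 are left out (0.77 and 1.17). The setting that pairs WT and pete2 samples by number is not drawn.

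Taken number by number, pete2 had the lower CHLM and the higher AT1G74470 in all 6 comparisons of samples with the same number. The deposited AT1G74470 of pete2 was 1.47, 1.47, 1.45, 1.42, 1.32 and 1.24 times that of WT at numbers 1 to 6. This excess varied little although the level itself varied over 3-fold among the samples. The deposited CHLM of WT was 1.11, 1.61, 7.10, 7.60, 4.06 and 2.69 times that of pete2 at numbers 1 to 6, a far wider spread. After normalization the AT1G74470 excess was 1.53-fold to 1.84-fold and the CHLM deficit 1.05-fold to 3.71-fold. A value higher in pete2 at all 6 numbers was found for 3.67% of the tested probes as deposited and 8.88% after normalization, and a lower one for 16.6% and 10%. The labels do not say that a WT and a pete2 sample of the same number belong together.

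The ratio of CHLM to AT1G74470 within a sample does not depend on a factor that multiplies all values of that array. It can still change with an offset or with a scaling that treats dim and bright probes differently. Its size does not compare the transcripts, since the probes differ, and only its change between samples is used. The log2 ratio of the deposited intensities averaged -2.63 ± 1.097 (SD, n = 6) over the WT samples and -4.77 ± 1.74 (SD, n = 6) over the pete2 samples. In WT samples 1 to 6 it was -3.37, -2.66, -3.61, -3.55, -1.19 and -1.38. In pete2 samples 1 to 6 it was -4.07, -3.90, -6.97, -6.98, -3.60 and -3.12. Pete2 samples 1 to 4 lay below every WT sample, and samples 5 and 6 lay within the WT range, so the groups overlapped. The mean log2 ratio of pete2 minus that of WT was -2.15 as deposited, -1.77 after quantile normalization and -1.62 with cyclic loess. No test was made on the ratio, because the genes were paired with their differences known.

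**Figure D4:**
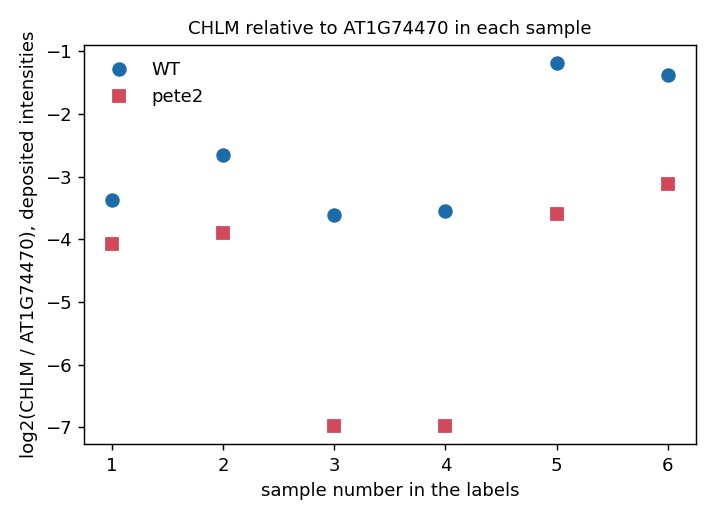
Log2 ratio of the deposited intensities of CHLM and AT1G74470 against the sample number, with WT as circles and pete2 as squares. Pete2 lies below WT at each number, with differences from -0.70 to -3.43 log2 units, and both groups have their lowest ratios in samples 3 and 4 and their highest in samples 5 and 6.

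The order of the ratio by consecutive sample numbers was therefore shared by WT and pete2. Samples 5 and 6 had the most CHLM relative to AT1G74470 in both groups, with mean log2 ratios of -1.28 in WT and -3.36 in pete2. Samples 3 and 4 had the least, at -3.58 and -6.97. The deposited CHLM itself did not share this order. Its mean over samples 5 and 6 was the highest in WT (0.548). In pete2 that mean (0.165) lay below the mean of samples 1 and 2 (0.239). After normalization samples 5 and 6 had the highest mean CHLM in both groups (0.409 in WT and 0.316 in pete2). The log2 ratio of pete2 minus that of WT was -0.70, -1.24, -3.36, -3.43, -2.42 and -1.74 at numbers 1 to 6. The variation by number within a group, a range of 2.42 in WT and 3.86 in pete2, was at least as large as the mean difference between groups of -2.15.

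The spread of CHLM differed between the groups. The SD of its log2 normalized values was 0.357 in WT and 0.973 in pete2, larger than in 30.3% and 86.1% of the 1740 probes above 0 in all samples. For AT1G74470 it was 0.688 and 0.707, larger than in 64.7% and 63.6% of them. The size of the log2 difference exceeded that of 66.2% of all tested probes for CHLM and of 52.1% for AT1G74470.

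The rest of the pathway was thinly covered. Of 50 genes of tetrapyrrole synthesis, its control and chlorophyll breakdown, 3 were measured, namely CHLM, AT1G74470 and NTRC, and 0 passed the test (15 were on the list of the magnesium branch, of which CHLM and AT1G74470 were measured). None of the listed genes of 5-aminolevulinate to protoporphyrin, of haem and bilins, of chlorophyll breakdown, of plastid isoprenoid precursors or of carotenoids had a probe of its own. Of 23 listed genes of chlorophyll-binding antenna proteins 1 was measured, and of 7 listed for tocopherol and phytol 1 was.

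NTRC (AT2G41680), a plastid NADPH-dependent thioredoxin reductase that is known to act on enzymes of chlorophyll synthesis, was at a normalized level of 0.113 ± 0.0392 (SD, n = 6) over the WT samples, against 0.116 ± 0.0925 (SD, n = 6) for pete2. Its log2 difference was -0.34 ± 0.578 (SE, limma, adjusted p = 0.729). Its lowest values were 0.0264 and 0.0311 in pete2 samples 3 and 4, the samples that also had the least CHLM. As deposited these values were only 0.00464 and 0.00769, so they rest on very dim signals. LHB1B2 (AT2G34420), an antenna protein of photosystem II, had a lowest normalized value of 1.125 and a highest of 42.6 among the WT samples, and of 17.6 and 69.1 among those of pete2. Its log2 difference was 1.4998 ± 0.955 (SE, limma, adjusted p = 0.342). Like AT1G74470 it was highest in samples 3 and 4 of pete2 and lowest in samples 5 and 6 of both groups, most of all in WT, where these were at 1.125 and 1.47 against 32.9 or more in the other 4 samples.

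AT1G78620, the measured member of the tocopherol and phytol list, rose in pete2, to a normalized level of 0.903 ± 0.137 (SD, n = 6) from a WT level of 0.578 ± 0.150 (SD, n = 6). The groups overlapped, since pete2 sample 4 (0.665) lay below WT samples 1 and 2 (0.794 and 0.735). The log2 difference was 0.67 ± 0.190 (SE, limma, adjusted p = 0.0403). The call was lost in 20 of 28 alternatives, among them every other scaling. As deposited the log2 difference was 0.17 (adjusted p = 0.538), and with median centring and cyclic loess the adjusted p was 0.129 and 0.0803. With consecutive samples as a random block or averaged it was 0.13 and 0.387. It was lost as well without any 1 of WT samples 3 to 6 or pete2 samples 2, 3, 5 and 6 (adjusted p between 0.0629 and 0.0855).

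**Figure D5:**
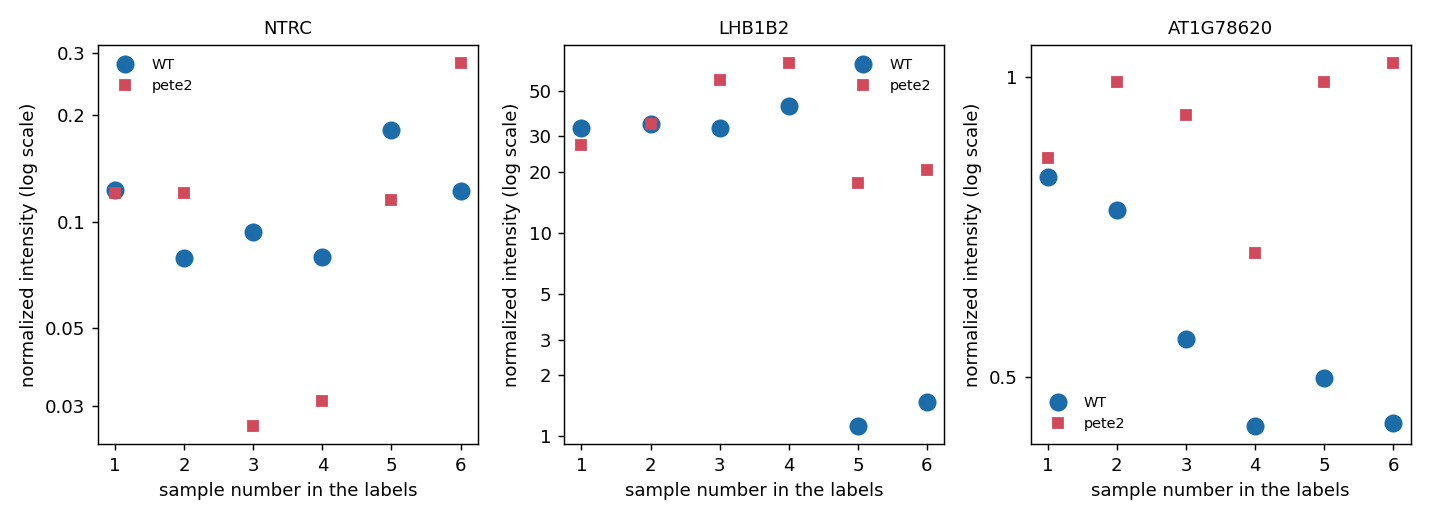
Normalized intensity (array units, log axis) of NTRC, LHB1B2 and AT1G78620 against the sample number, with WT as circles and pete2 as squares. NTRC is lowest in pete2 samples 3 and 4 (0.0264 and 0.0311), LHB1B2 is lowest in WT samples 5 and 6 (1.125 and 1.47), and AT1G78620 is higher in pete2 at each number.

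The genes whose pattern over the 12 samples was most like each enzyme gene were sought among 334 single-gene probes above 0 in all samples, by Pearson's r of log2 normalized values. The 12 values share the groups, the arrays' differing shares of zeros and the closeness of consecutive numbers, so r is a description. Most like CHLM were AT5G06790 (r = 0.90), AT1G17744 (0.87), AT2G30320 (0.85), AT2G39360 (0.84) and NTRC (0.82). Spearman's rho, which uses ranks, was 0.56 for NTRC and between 0.66 and 0.86 for the others. Most like AT1G74470 were AT1G13990 (r = 0.93), CCL (0.90), ATSPS4F (0.88), AT4G20300 (0.88) and AT2G35450 (0.87). The probe of AT2G35450 has the number 2361, next to 2360 for AT1G74470, and those of ATSPS4F, AT1G13990 and CCL have the numbers 2649, 2651 and 2653. Whether position on the array has a part in these values was not tested.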

How the data were processed

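The deposited table holds 1 intensity per probe and sample, in linear array units, for 6 WT and 6 pete2 samples. The sources used here name no scanner, background correction, scaling or genome build for the deposited intensities, so no coordinates are given. The number of arrays limits the precision. Genes were assigned through the platform's probe table (692 with 1 gene, 870 with several, 1877 not listed), and symbols come from RefSeq (TAIR10.1, 690 of the 692 matched).

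Intensities were quantile normalized, values at or below the 1st percentile of the positive values (0.00560) and deposited zeros were raised or set to that floor before log2. Dropping 118 probes that were at 0 throughout left 3321, which were tested with limma 3.58.1 in R 4.3.3 (eBayes with intensity trend, Benjamini-Hochberg over all probes, threshold 0.05). The calculation was tested on simulated data. The members, gene lists and settings were chosen with earlier results of these data known. The named genes are CHLM, AT1G74470, every measured list gene and the 5 probes most like each enzyme gene. The ratio was taken on deposited intensities. Alternatives changed the scaling, floor, filter, variance model, treatment of consecutive or same numbers, and the samples used. Leaving out samples 3 and 4 of pete2 or of both groups, leaving out samples 5 and 6 of WT, and the likeness under other scalings were added after seeing the data.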

Additional observations from a re-analysis of the deposited data

Results flagged for a closer look

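For NTRC in pete2, sample 6 stood apart from the others, at a normalized intensity of 0.282 against 0.0264 to 0.121 in samples 1 to 5. Its gap to the nearest sample was 0.631 of the group's range on the linear scale, which exceeded Dixon's critical value at 6 samples. The fits used log2 values instead. With independent, normally distributed values about 1 group in 20 would do so by chance, and 1 of the 12 groups examined did. The samples are not known to be independent.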

How the results depend on the processing

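CHLM stayed lower and AT1G74470 higher in pete2 under every alternative run, with log2 differences from -1.67 to -0.43 and from 0.33 to 1.17. CHLM passed the threshold as deposited (-1.67) and without pete2 samples 5 and 6 (-1.46), which hold its highest normalized values in pete2. A two-sided exact permutation test, which takes the 12 samples as exchangeable and is not adjusted over probes, gave CHLM an exact p of 0.0325 on normalized values (-1.02) and 0.00216 on deposited values (-1.67, the smallest p that 6 against 6 allow), and AT1G74470 0.0931 and 0.275. It adds no support, since consecutive numbers correlated at 0.525, and with them averaged the unadjusted limma p of CHLM was 0.137. AT1G74470 passed without samples 5 and 6 of both groups (0.77) or of pete2 (1.17), and with the sample number as a replicate block (0.76, limma adjusted p = 0.00534, against 0.0865 for CHLM and 324 calls over all probes). The labels do not pair samples by number. The correlation of same-numbered deviations lay between 0.0198 and 0.283 and exceeded 0.1 for 4 of 6 numbers, and 8 of 12 samples correlated best with their own number. Leaving out each sample in turn gave -1.21 to -0.78 for CHLM, 0.57 to 0.95 for AT1G74470, -2.48 to -1.71 for the log2 ratio and 287 to 423 calls. The log2 ratio difference of -2.15 was -1.05 without pete2 samples 3 and 4, -1.48 without WT samples 5 and 6, -1.49 with log2(value + 0.1) and -1.62 with cyclic loess. AT1G78620 lost its call also without the eBayes trend (adjusted p = 0.0896) and with the replicate block (0.0625). The 372 calls over all probes became 168 with consecutive numbers as a random block, 11 with them averaged and 156 without samples 3 and 4 of both groups, against 339 without samples 5 and 6 of both groups. The cause was not tested. NTRC, at -0.67 to 0.0021 with each sample left out, turned positive without pete2 replicate 3 (0.0021), without samples 3 and 4 of both groups (0.27) or of pete2 (0.44), and LHB1B2 turned negative without samples 5 and 6 of WT (-0.11), with no call. Of the 5 genes most like CHLM, 4 or 5 remained under other scalings and floors, and of those most like AT1G74470, 2 remained with median centring and 3 as deposited. Dim signals limit CHLM, whose deposited value in pete2 samples 3 and 4 was 0.0440 and 0.0392, with no background level given.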

Other observations

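The probe with the number before that of CHLM (2090), for which the platform's table lists no gene, had a Pearson r of 0.88 with CHLM over the 12 samples. Of the probes numbered next to that of AT1G74470, 2361 (AT2G35450) had 0.87 and 2359, which lists several genes, had -0.21. Over the 1739 other probes above 0 in all samples, the median r was -0.01 with CHLM and -0.06 with AT1G74470, and 1.44% and 3.39% of them lay above 0.8. LHB1B2 had an r of 0.87 with AT1G74470 and -0.62 with CHLM. Between CHLM and AT1G74470 themselves r was -0.85 after normalization and -0.64 as deposited. Within groups the normalized r was -0.73 in WT and -0.90 in pete2. The neighbouring probes were looked up after the likeness lists were seen, and no test was made on them.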
